A study of Mus musculus with 6 samples.

Results

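Levels of the messenger RNAs of the citric acid cycle and of the routes by which pyruvate and glutamine carbon enter it and citrate leaves it were compared between mouse KP cells with Npm1, which encodes the nucleolar protein nucleophosmin, and the same cells after induction of a hairpin that depletes it. The 34 genes were taken from a list given by name, and all 34 were found among the 48526 gene identifiers and passed the filter on low counts. KP is the only description of the cells in the labels. Each of 3 stable lines, selected with puromycin, carried a Tet-on pLKO.1 vector with its own hairpin (shNpm1-3, shNpm1-4 or shNpm1-5), and these are called lines 3, 4 and 5. Each line gave 1 library of total RNA without doxycycline and 1 with 100 ng/ml doxycycline, the tetracycline antibiotic that induces the hairpin, so that each group held 3 libraries.

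The lines served as replicates, and a p-value therefore sets a difference against the spread between lines with different hairpins, with no repeat culture of any line. All 6 libraries carried a hairpin vector, and none came from cells given doxycycline without a hairpin against Npm1, so that the drug and the knockdown cannot be told apart. Whether a line is 1 clone is not given in the sources used here.

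The citric acid cycle oxidises acetyl-CoA in the mitochondrial matrix and passes the electrons to the respiratory chain, partly through succinate dehydrogenase, which is also complex II of that chain. Pyruvate crosses the inner mitochondrial membrane through a carrier made of Mpc1 and Mpc2 and is turned into acetyl-CoA by the pyruvate dehydrogenase complex or into oxaloacetate by pyruvate carboxylase. Proliferating and tumour cells also draw on glutamine, which enters as 2-oxoglutarate through glutamate dehydrogenase or transaminases, and they send citrate to the cytosol, where it is cleaved to acetyl-CoA for lipid synthesis.

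Between 24391198 and 27341036 counts per library fell in genes, of which 14531 were tested. Npm1 fell from 2002, 1851 and 1924 CPM (counts per 1000000 counts in genes, with TMM factors) to 67.8, 245 and 400 CPM in lines 3, 4 and 5, with 3.39%, 13.2% and 20.8% left (adjusted p = 0.011 by edgeR, 0.0937 without the untreated library of line 3 and 0.177 without both libraries of line 4). The treated library of line 3 stood apart: its counts differed from those of the treated libraries of lines 4 and 5 with a chi-square per degree of freedom of 108 and 80.9, against 35.8 between the latter. Without doxycycline line 3 also differed more from lines 4 and 5, at 22.6 and 15.1, against 7.86 between the latter. Epithelial keratins were abundant, with Krt8 at 4060 ± 387 CPM (n = 3, SD) without doxycycline, while 6 fibroblast markers summed to 4.04 to 4.61 CPM and 4 endothelial markers to 0.729 to 1.33 CPM. Of 18 macrophage markers, 15 rose among the 17 tested. The sum of the 18 was 46.3 to 51.1 CPM without and 195 to 446 CPM with doxycycline. None was at 0 in all 3 libraries of a group, though Adgre1, Fcgr1, Mmp12 and Gpnmb were at 0 counts in 1 or 2 untreated libraries. Cd68 and Cd14, the 2 tested but not called, had means of 9.73 and 23.9 CPM without and 10.7 and 21.7 CPM with doxycycline. Of 3 markers of all leukocytes, Coro1a fell from a mean of 6.20 to 2.49 CPM (edgeR adjusted p = 0.0255). Ptprc (8.65 to 5.32 CPM) and Laptm5 (6.57 to 5.22 CPM) had lower means but did not pass. Of 11 T and NK lymphocyte markers, 10 fell (edgeR adjusted p under 0.05), their sum going from 15.5 to 21.6 CPM to 1.03 to 4.07 CPM, with Cd3d and Nkg7 at 0 counts in all 3 libraries with doxycycline. In such bulk libraries, fewer cells of a type and less RNA per cell cannot be told apart, and the part of these markers in the results below was not tested.

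Mpc2, a subunit of the mitochondrial pyruvate carrier, was the 1 gene of the 34 that rose, and none fell, by edgeR's quasi-likelihood test at a Benjamini-Hochberg adjusted p under 0.05. Over all genes tested 2.28% were called, 0.963% higher and 1.32% lower, so that 1 of 34 is near that background. The promoter sequences of 3 genes are given here because Mpc2 is the gene that was called, Mpc1 encodes its partner in the carrier, and Sdhd is the most abundant gene of the list. Each is the 250 bases before the RefSeq start of the gene (build GRCm38.p6), 5′ to 3′ on the gene's strand, with matches on either strand in capitals. The motifs searched were CCGGAAG (bound by ETS factors), CACGTG (the E box), TGACGTCA (the cyclic AMP response element) and that of NRF1, a factor of many mitochondrial genes, in a strict form and in a relaxed form with any base at the fifth position.
Mpc2, chr1:165461010-165461259, plus strand: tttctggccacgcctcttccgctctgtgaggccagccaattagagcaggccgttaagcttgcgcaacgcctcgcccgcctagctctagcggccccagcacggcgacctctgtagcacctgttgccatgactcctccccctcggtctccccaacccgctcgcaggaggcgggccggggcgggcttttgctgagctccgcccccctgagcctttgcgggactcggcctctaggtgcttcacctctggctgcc
Mpc1, chr17:8283537-8283786, plus strand, the upstream of 2 RefSeq starts: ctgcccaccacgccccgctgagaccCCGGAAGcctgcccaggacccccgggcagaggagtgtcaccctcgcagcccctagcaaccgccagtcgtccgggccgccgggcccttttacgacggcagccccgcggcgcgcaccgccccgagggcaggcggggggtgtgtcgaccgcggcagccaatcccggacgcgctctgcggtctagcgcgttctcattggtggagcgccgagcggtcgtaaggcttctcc
Sdhd, chr9:50603850-50604099, minus strand: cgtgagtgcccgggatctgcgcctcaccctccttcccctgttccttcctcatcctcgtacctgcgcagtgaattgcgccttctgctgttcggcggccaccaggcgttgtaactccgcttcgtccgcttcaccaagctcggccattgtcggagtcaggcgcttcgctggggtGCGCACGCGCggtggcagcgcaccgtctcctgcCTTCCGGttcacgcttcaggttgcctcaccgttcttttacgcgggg
The Mpc2 sequence held no match, that of Mpc1 held 1 ETS match, and that of Sdhd held 1 ETS and 1 relaxed NRF1 match, which did not overlap. In the GENCODE M21 annotation used for gene coordinates, Mpc2 and Mpc1 begin further upstream, at 165460637 and 8282904. Their windows therefore lie inside the annotated genes, and the bases before these annotated starts were not searched.

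Windows that also include the 50 bases after the start were in the RefSeq table for 31 of the 34 genes. Among these 31, 7 held CCGGAAG (22.6%, against 9.93% of 27025 genes with a window) and 4 held the relaxed NRF1 motif (12.9% against 5.19%), while 0 held the strict one, against 1.07%. CACGTG was found in 3 (9.68% against 8.09%) and TGACGTCA in 2 (6.45% against 2.03%). The relaxed NRF1 match was in Dld, Sdha, Sdhd and Sucla2, and the ETS match in Dlst, Glud1, Idh3b, Idh3g, Mpc1, Sdhb and Sdhd. These are matches of letters and describe the windows only.

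Mpc2 (ENSMUSG00000026568, mm10 chromosome 1, 165460637 to 165481214, plus strand) was at 51.3, 42.7 and 47.4 CPM in lines 3, 4 and 5 without and 78.5, 68.6 and 72.5 CPM with doxycycline. Every treated library was above every untreated one, and the 3 lines moved by nearly the same ratio, with log2 ratios of 0.61, 0.68 and 0.61. The means were 47.1 ± 4.31 and 73.2 ± 4.95 CPM (n = 3 each, SD), a log2 fold change of 0.64 (SE 0.13, adjusted p = 0.0295 by edgeR) or a 1.55-fold rise with a 95% interval of 1.28 to 1.88. With the line as a replicate block the edgeR adjusted p was 0.0439. Without the treated library of line 3 the log2 fold change was 0.59 (edgeR adjusted p = 0.0128). The call was lost in 6 of the 9 fits that left out a library or a line: without the untreated library of line 3, 4 or 5 (edgeR adjusted p = 0.103, 0.221 and 0.145), without the treated library of line 5 (0.0654), and without both libraries of line 4 or 5 (0.243 and 0.280). It was also lost when genes under a mean of 5 CPM were left out of the test (0.0652), while over all these fits the log2 fold change stayed between 0.57 and 0.70. The macrophage sum with doxycycline was 288, 446 and 195 CPM in lines 3, 4 and 5. Line 4, with the highest sum, had the highest log2 ratio of Mpc2 but its lowest treated level, 68.6 CPM. The part of these markers in the rise of Mpc2 was not tested.

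Mpc1, the partner subunit, was at 6.93, 8.86 and 6.87 CPM without and 8.01, 8.95 and 7.46 CPM with doxycycline, and the groups overlapped. Its log2 fold change was 0.11 (95% interval -0.31 to 0.53, edgeR adjusted p = 0.836). Per kilobase of transcript the ratio of Mpc1 to Mpc2 was 0.144 to 0.221 without and 0.109 to 0.139 with doxycycline, so that the libraries of the groups did not overlap. Mpc1 shares 23.1% of its exonic bases with a gene on the opposite strand, and 261 of the 961 bases of its transcript are identical to the processed pseudogene Mpc1-ps, so that some of its reads may be missing from its count.

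**Figure D1:**
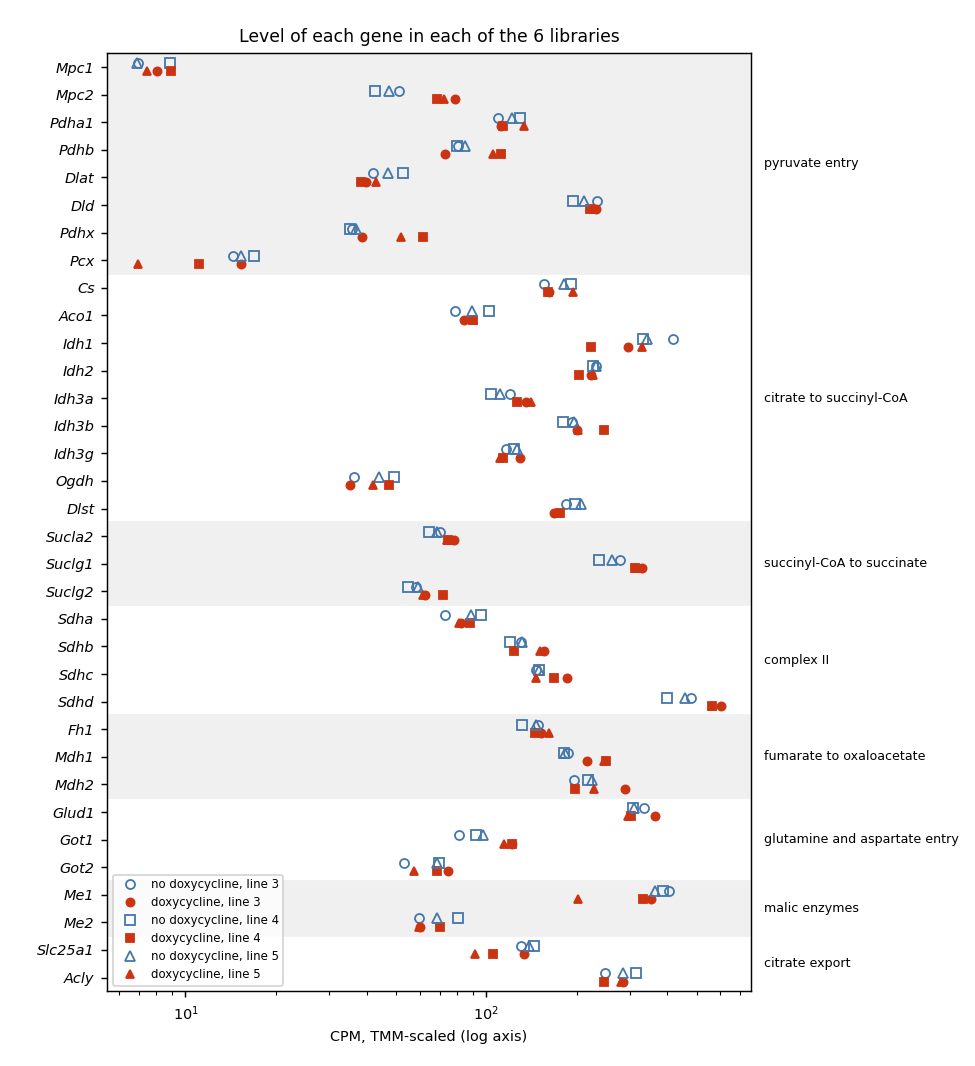
Level of each of the 34 genes in each library (horizontal log axis, TMM-scaled CPM), ordered by role, with open blue symbols without and filled red symbols with doxycycline and the symbol shape giving the line. Mpc2 separates by group, from 42.7 to 51.3 CPM without and 68.6 to 78.5 CPM with doxycycline, while most genes overlap.

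The remaining genes of pyruvate entry showed differences in both directions, none of which passed. The pyruvate dehydrogenase complex joins a decarboxylase of Pdha1 and Pdhb, the acetyltransferase Dlat, the dehydrogenase Dld and the binding protein Pdhx, which anchors Dld to the core. Pdhx was at 35.7, 35.3 and 36.9 CPM without and 38.5, 61.7 and 52.3 CPM with doxycycline. Its treated libraries were all above the untreated ones, line 3 by little and lines 4 and 5 by more, and its log2 fold change was 0.50 (SE 0.17, adjusted p = 0.171 by edgeR). Without the treated library of line 3 it was 0.67 (edgeR adjusted p = 0.00666), when 10.4% of all genes were called. Without both libraries of line 3 it was 0.66 (edgeR adjusted p = 0.041), when 4.5% were called. Without both libraries of line 4 or 5 it was 0.32 and 0.49 (edgeR adjusted p = 0.699 and 0.599). Pdhx was called in 2 of 19 alternative fits. Dlat was at 42.2, 53.0 and 47.2 CPM without and 39.9, 38.4 and 42.9 CPM with doxycycline, with a log2 fold change of -0.23 (SE 0.13, adjusted p = 0.42 by edgeR). It was lower in each line, though the groups overlapped.

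Pdha1 was at 109, 130 and 122 CPM without and 112, 114 and 133 CPM with doxycycline. These ranges overlap, and its fitted ratio was 0.995 with a 95% interval of 0.817 to 1.21. Of its exonic bases, 16.2% overlap Map3k15 on the opposite strand. Pdhb had means of 81.7 ± 2.66 and 96.6 ± 20.7 CPM and Dld of 213 ± 20.0 and 228 ± 5.28 CPM (n = 3 each, SD; adjusted p = 0.5 and 0.77 by edgeR). The fold of Pdhb passed in 1 of 19 alternative fits, without the treated library of line 3, at a log2 value of 0.41 (edgeR adjusted p = 0.0373). Without both libraries of line 4 it was 0.11 (edgeR adjusted p = 0.923). It shrank from 0.24 to 0.12 in a fit with offsets for the dependence of each library on the length and GC content of transcripts.

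Pcx, pyruvate carboxylase, which refills the cycle with oxaloacetate, was the gene of the list with the lowest level per kilobase. It was at 14.4, 16.9 and 15.3 CPM without and 15.2, 11.1 and 6.97 CPM with doxycycline. The treated library of line 3 lay within the untreated range and those of lines 4 and 5 below it. The log2 fold change was -0.48 (SE 0.25, 95% interval -1.03 to 0.07, edgeR adjusted p = 0.373). It was -0.77 without the treated library of line 3 (edgeR adjusted p = 0.0329), the 1 call of Pcx in 19 alternative fits. Without both libraries of line 5 it was -0.25 (edgeR adjusted p = 0.872), and it shrank to -0.26 with the offsets for length and GC content.

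The 9 genes from citrate synthase to succinyl-CoA showed no call. Citrate synthase (Cs), which condenses acetyl-CoA with oxaloacetate, had means of 176 ± 18.7 CPM without and 172 ± 19.6 CPM with doxycycline (n = 3 each, SD), a fitted ratio of 0.98 with a 95% interval of 0.794 to 1.21. Aco1, the cytosolic aconitase that also serves as an iron regulatory protein, was at 78.6, 102 and 89.9 CPM without and 84.6, 90.3 and 90.4 CPM with doxycycline. Its treated libraries lay within the untreated range, and its fitted ratio was 0.981 (0.804 to 1.2).

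The isocitrate dehydrogenases differed by compartment and cofactor. Idh1, the cytosolic enzyme that makes NADPH, was at 418, 333 and 342 CPM without and 296, 222 and 328 CPM with doxycycline. All treated libraries were below all untreated ones, by little in line 5, and the log2 fold change was -0.37 (SE 0.17, adjusted p = 0.319 by edgeR). Idh2, its mitochondrial counterpart, had means of 230 ± 2.56 and 218 ± 12.9 CPM (n = 3 each, SD; log2 fold change -0.08, edgeR adjusted p = 0.799). The ratio of Idh1 to Idh2 per kilobase was 1.20 ± 0.147 without and 0.976 ± 0.136 with doxycycline (n = 3, SD), lower in each line.

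The NAD-dependent enzyme of the cycle is built of a catalytic subunit, Idh3a, and the regulatory subunits Idh3b and Idh3g. Idh3a was at 120, 104 and 111 CPM without and 136, 126 and 141 CPM with doxycycline. The groups did not overlap, and the log2 fold change was 0.27 (SE 0.12, adjusted p = 0.298 by edgeR). Idh3b had a log2 fold change of 0.19 and Idh3g of -0.05 (adjusted p = 0.508 and 0.898 by edgeR). Of the 2-oxoglutarate dehydrogenase complex, the decarboxylase Ogdh had a log2 fold change of -0.06 (95% interval -0.41 to 0.29) and the succinyltransferase Dlst of -0.18 (-0.44 to 0.07). Dlst was lower in each line, from 196 ± 10.7 to 173 ± 4.42 CPM (n = 3 each, SD; adjusted p = 0.476 by edgeR), and its groups did not overlap.

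The 3 genes of succinyl-CoA ligase, the step of the cycle that makes a nucleoside triphosphate directly, were each higher in every treated library than in any untreated one, as were 11.3% of all genes tested, and none passed the test. Suclg1, the subunit common to both forms, was at 278, 237 and 263 CPM without and 328, 313 and 314 CPM with doxycycline. Its log2 fold change was 0.30 (SE 0.12, adjusted p = 0.273 by edgeR). Sucla2, of the ADP-linked form, was at 70.3, 64.5 and 68.5 CPM without and 78.2, 74.8 and 73.9 CPM with doxycycline, a log2 fold change of 0.16 (SE 0.11, adjusted p = 0.541 by edgeR), which became 0.05 with the offsets for length and GC content. Suclg2, of the GDP-linked form, had a log2 fold change of 0.18 (SE 0.12, adjusted p = 0.505 by edgeR). The ratio of Sucla2 to Suclg2 per kilobase was 1.78 ± 0.037 without and 1.76 ± 0.165 with doxycycline (n = 3 each, SD), a difference smaller than the spread between lines. Suclg2 has a processed pseudogene, Gm15163, that is 98.9% identical over 1302 bases.

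Succinate dehydrogenase consists of the flavoprotein Sdha, the iron-sulphur protein Sdhb and the membrane anchors Sdhc and Sdhd. Sdhd was at 479, 400 and 457 CPM without and 605, 563 and 561 CPM with doxycycline. The groups did not overlap, and the log2 fold change was 0.37 (SE 0.14, 95% interval 0.07 to 0.67, edgeR adjusted p = 0.206). Sdha was at 72.7, 95.9 and 89.1 CPM without and 82.2, 88.4 and 81.2 CPM with doxycycline, a fitted ratio of 0.977 (0.796 to 1.2), with the treated libraries inside the untreated range. Sdhb and Sdhc both had log2 fold changes of 0.17 (adjusted p = 0.575 and 0.569 by edgeR). Summed over the 4 genes, complex II was at 765 to 829 CPM without and 939 to 1029 CPM with doxycycline, and Sdhd made up most of that sum in every library.

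**Figure D2:**
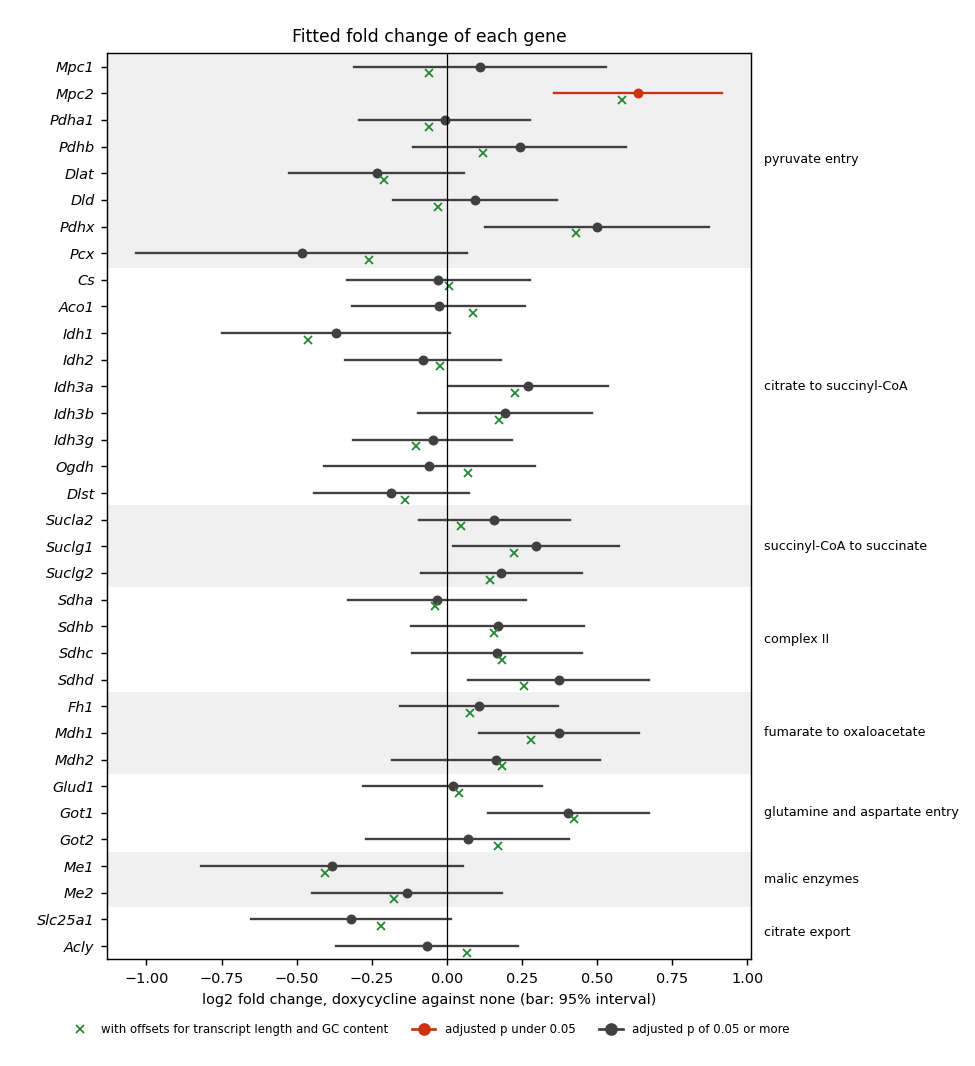
Fitted log2 fold change of each gene, doxycycline against none (horizontal axis, points with bars for the 95% interval), with green crosses for the fit with offsets for transcript length and GC content. Mpc2, in red at 0.64, is the gene past the threshold, and the other 33 lie between -0.48 and 0.50.

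Fh1, fumarase, was at 149, 131 and 146 CPM without and 152, 146 and 162 CPM with doxycycline, a log2 fold change of 0.11 (95% interval -0.16 to 0.37, edgeR adjusted p = 0.719), with overlapping groups. The malate dehydrogenases Mdh1 (cytosolic) and Mdh2 (mitochondrial), which interconvert malate and oxaloacetate, differed in their spread. Mdh1 was at 186, 181 and 182 CPM without and 216, 250 and 246 CPM with doxycycline. Its groups did not overlap, and its log2 fold change was 0.37 (SE 0.12, adjusted p = 0.157 by edgeR), or 0.44 without the treated library of line 3 (0.0233). That was the 1 call of Mdh1 in 19 alternative fits. Its edgeR adjusted p reached 0.713 when a library or line was left out. Mdh2 had means of 212 ± 15.3 and 238 ± 46.6 CPM (n = 3 each, SD; adjusted p = 0.666 by edgeR), and its log2 ratio was 0.56 in line 3, -0.15 in line 4 and 0.03 in line 5.

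Of the genes of glutamine and aspartate entry, Got1, the cytosolic aspartate transaminase, had the second smallest p of the list. It was at 80.9, 92.1 and 97.4 CPM without and 122, 121 and 115 CPM with doxycycline. The groups did not overlap, and the log2 fold change was 0.40 (SE 0.12, 95% interval 0.14 to 0.67, edgeR adjusted p = 0.13, and 0.0868 with the offsets). Got2, its mitochondrial counterpart, had means of 63.8 ± 9.26 and 67.0 ± 8.90 CPM (n = 3 each, SD; adjusted p = 0.877 by edgeR). Got2-ps1, a processed pseudogene, is 99.1% identical to Got2 over 1293 bases, so that reads may have been lost from Got2. The ratio of Got1 to Got2 per kilobase was 1.87, 1.63 and 1.74 without and 2.00, 2.17 and 2.46 with doxycycline in lines 3, 4 and 5, with no overlap. The groups overlapped for Mdh1 to Mdh2 (0.559 to 0.655 without, 0.514 to 0.869 with doxycycline). They also overlapped for Me1 to Me2 (3.86 to 5.41, and 2.72 to 4.71) and Pdha1 to Pdhb (0.723 to 0.860, and 0.542 to 0.817). How often such ratios separate over all genes was not determined.

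Glud1, glutamate dehydrogenase, which releases 2-oxoglutarate from glutamate, was at 335, 307 and 309 CPM without and 364, 303 and 295 CPM with doxycycline. It was above the untreated range in line 3 and below it in lines 4 and 5, and its fitted ratio was 1.01 with a 95% interval of 0.824 to 1.25.

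The malic enzymes and the citrate export genes had fitted log2 fold changes below 0, though that of Acly was 0.067 with the offsets. Me1, the cytosolic malic enzyme and a source of NADPH, was at 404, 387 and 365 CPM without and 353, 332 and 202 CPM with doxycycline. The groups did not overlap, line 5 was lower than the others, and the log2 fold change was -0.38 (SE 0.20, adjusted p = 0.372 by edgeR). Me1 has a processed pseudogene, Gm7049, that is 98.5% identical over 1638 bases. Me2, the mitochondrial enzyme, was at 59.8, 80.3 and 68.4 CPM without and 60.2, 70.2 and 59.6 CPM with doxycycline (log2 fold change -0.13, 95% interval -0.45 to 0.18, edgeR adjusted p = 0.704).

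Slc25a1, which carries citrate out of mitochondria, was at 130, 144 and 139 CPM without and 134, 105 and 91.8 CPM with doxycycline. Lines 4 and 5 were lower with doxycycline and line 3 was not, and the log2 fold change was -0.32 (SE 0.15, adjusted p = 0.327 by edgeR), or -0.47 without the treated library of line 3 (0.0283). That was the 1 call of Slc25a1 in 19 alternative fits. Its edgeR adjusted p reached 0.869 when a library or line was left out. Acly, which cleaves the exported citrate, was at 249, 314 and 285 CPM without and 284, 246 and 280 CPM with doxycycline. The ranges overlapped, and its fitted ratio was 0.955 (0.774 to 1.18).

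Counted over the list, 19 of the 34 genes had a log2 fold change above 0 and 15 below, and the median was 0.08, against 50.4% above 0 and a median of 0.0031 over all genes tested. With the offsets 21 were above 0 (61.8%, against 54.6% of all genes), and without both libraries of line 3 the median was -0.028. At an unadjusted p under 0.05, 7 genes were higher (20.6%, against 8.33% of all genes) and 0 lower (against 7.96%). The groups did not overlap for 10 genes that were higher (29.4%, against 11.3%) and 4 that were lower (11.8%, against 11.2%). The 4 lower ones were Idh1, Idh2, Dlst and Me1. For 24 of the 34 genes the 95% interval of the fold lay within 1.5-fold in either direction, and for 33, all but Pcx, within 2-fold. DESeq2 called the same single gene, Mpc2 (DESeq2 adjusted p = 0.00102), where it called 4.95% of all genes, and the paired fit and the fit with offsets also called Mpc2 alone of the 34, with 1.67% and 2.07% of all genes called. Without the treated library of line 3, 6 of the 34 were called (Mpc2, Pdhb, Pdhx and Mdh1 higher, Pcx and Slc25a1 lower), when 10.4% of all genes were, and without both libraries of line 3, 2 were (Mpc2 and Pdhx), when 4.5% of all genes were.

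**Figure D3:**
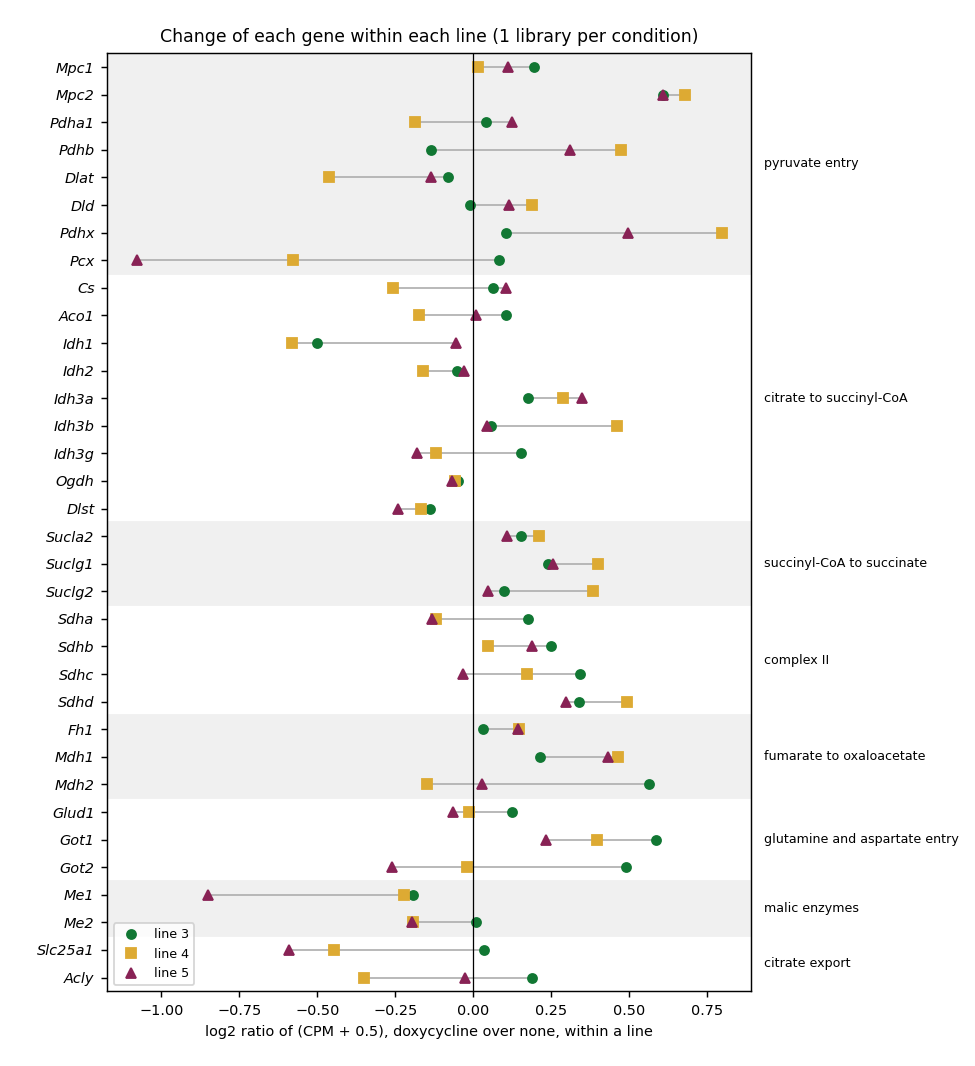
Log2 ratio of CPM + 0.5, doxycycline over none, within line 3 (circles), line 4 (squares) and line 5 (triangles) for each gene, with a grey bar over the range of the 3 lines. Mpc2 sits at 0.61 to 0.68 in all 3 lines, while Pcx spans 0.08 to -1.08.

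The ratios within each line are given as a description, since a difference in response between lines could not be tested with 1 library per line and condition. Between doxycycline and none, 13 of the 34 genes were higher in all 3 lines (38.2%, against 19.1% of all genes), 6 were lower in all 3 (17.6%, against 19.5%), and 15 were mixed. In line 3, 26 of the 34 ratios were above 0 (76.5%, against 50.0% of all genes), with a median log2 ratio of 0.11. In lines 4 and 5, 16 and 19 were above 0 (47.1% and 55.9%, against 49.3% and 48.8% of all genes), with medians of -0.02 and 0.04. Pcx, Slc25a1 and Me2 were near 0 in line 3, at 0.08, 0.03 and 0.01, and below 0 in lines 4 and 5, with Pcx at -0.58 and -1.08 and Slc25a1 at -0.45 and -0.59. Got2 and Mdh2 were highest in line 3, at 0.49 and 0.56, against -0.02 and -0.15 in line 4 and -0.26 and 0.03 in line 5.

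Levels were also compared between the lines themselves, with doxycycline as a term. By edgeR's F test of the line terms 0 genes of 14531 passed (0%; 667 genes, 4.59%, had an unadjusted p under 0.05), and 0 of the 34 had an unadjusted p under 0.05. The nearest was Ogdh, at 36.4, 49.4 and 44.0 CPM without and 35.2, 47.4 and 41.9 CPM with doxycycline in lines 3, 4 and 5 (edgeR unadjusted p = 0.0578, adjusted p = 0.868). Ogdh had the same order of the lines in both groups, with line 3 lowest. With 1 library per line and condition, the line test sees only differences that both groups share. The absence of calls therefore does not show that the lines are alike.

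Per kilobase of the longest coding transcript, the genes ranged without doxycycline from Pcx at 3.74 ± 0.303 to Sdhd at 362 ± 33.1 CPM per kilobase (n = 3, SD). Sdhd was followed by Suclg1 (171), Idh1 (158), Mdh2 (146) and Idh2 (132 CPM per kilobase). The ranges over lines of Idh1 overlapped those of Suclg1 and Mdh2. Within libraries Suclg1 was above Idh1 in each line, while Idh1 was above Mdh2 in line 3 and below it in lines 4 and 5. Within complexes the subunit levels were uneven. In the pyruvate dehydrogenase complex Dlat and Pdhx were at 11.8 and 14.4 CPM per kilobase, below Pdha1, Pdhb and Dld at 42.3, 54.0 and 83.8. Ogdh, at 10.5, was below its partner Dlst, at 71.0 CPM per kilobase. In complex II, Sdha was at 29.6, Sdhc at 46.8 and Sdhb at 112 CPM per kilobase. These values depend on the annotated transcript, which need not be the one expressed.

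**Figure D4:**
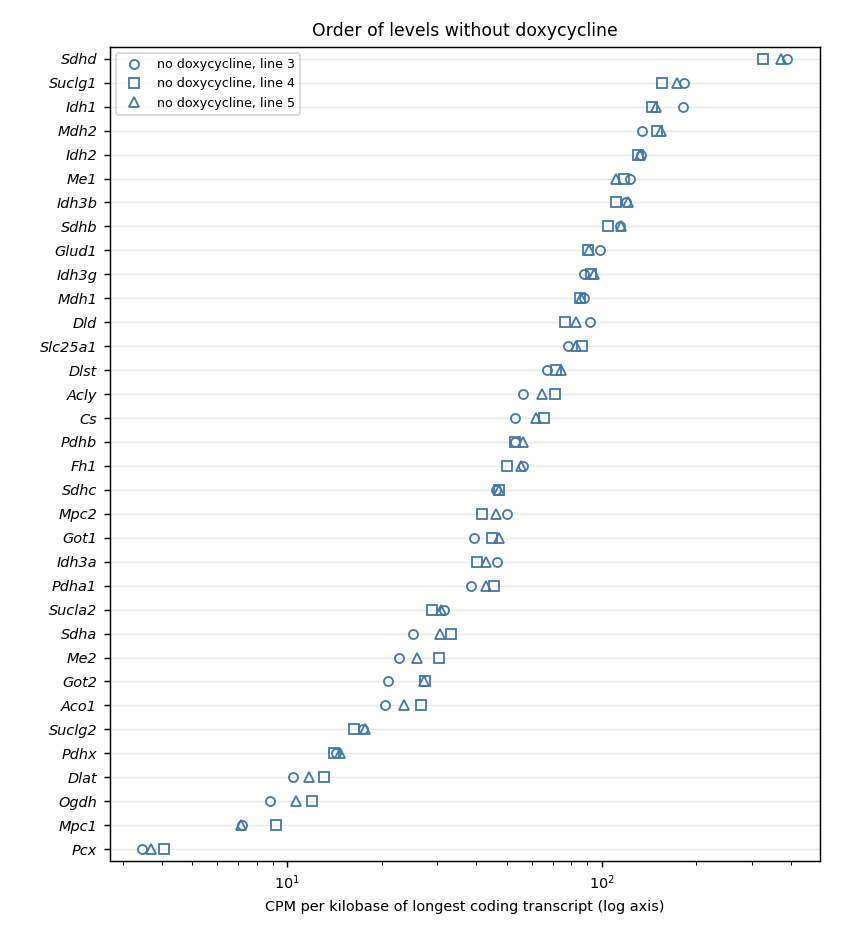
Levels of the 34 genes in the 3 libraries without doxycycline (symbols by line) in CPM per kilobase of the longest coding transcript on a log axis, ordered by their mean. Sdhd is highest at a mean of 362 and Pcx lowest at 3.74 CPM per kilobase, and the libraries of many neighbours overlap.

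A wider list of 47 genes of the same pathways, of regulators of pyruvate dehydrogenase, lipoylation, assembly factors, glutamine use, mitochondrial carriers and neighbouring enzymes, held 42 tested genes. None passed by edgeR in either direction. At an unadjusted p under 0.05, 5 were higher (11.9%, against 8.33% of all genes) and 3 lower (7.14%, against 7.96%). DESeq2 called 1, where it called 4.95% of all genes. The median log2 fold change was 0.0030, with 21 above 0 and 21 below. Within lines 3, 4 and 5, 28, 17 and 17 of the 42 ratios were above 0. These are 66.7%, 40.5% and 40.5%, against 50%, 49.3% and 48.8% of all genes. Without the treated library of line 3, 3 of the 44 genes of the list then tested passed, when 10.4% of all genes did. Slc25a12 (0.80, edgeR adjusted p = 0.00772) and Pdk2 (-0.61, edgeR adjusted p = 0.0399) were among them. Without both libraries of line 3, 1 of 43 passed, Slc25a12 (0.71, edgeR adjusted p = 0.0417), when 4.5% of all genes did. Slc25a12, a mitochondrial carrier of aspartate and glutamate, went from 11.2 ± 1.19 to 17.3 ± 3.45 CPM (n = 3 each, SD; log2 fold change 0.64 with SE 0.19, adjusted p = 0.122 by edgeR), and was the gene DESeq2 called (DESeq2 adjusted p = 0.0421). The pyruvate dehydrogenase kinase Pdk2, an inhibitor of that enzyme, went from 9.83 ± 0.263 to 6.65 ± 0.401 CPM (log2 fold change -0.56, edgeR adjusted p = 0.129). The complex II assembly factor Sdhaf4 went from 21.1 ± 3.06 to 31.0 ± 5.10 CPM (0.56, edgeR adjusted p = 0.137). Gls2, a glutaminase, went from 125 ± 5.05 to 162 ± 7.30 CPM (0.37, edgeR adjusted p = 0.14), and passed with the offsets for length and GC content (0.51, edgeR adjusted p = 0.0298).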

How the data were processed

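RNA sequencing counts of 6 libraries were analysed. Each deposited table holds raw read counts, made by the authors and not normalized. R 3.3.0, bedtools, HTSeq, STAR, DESeq2, Picard and CASAVA and the build mm10 are named per the submitters' processing notes. Not given in the sources used here are the annotation release, strand setting and other versions, so that reads of overlapping genes on opposite strands cannot be told apart. The 5 rows of each file that name no gene, holding 43.7% to 47.7% of all counts in the file, were left out. Most of these counts were for reads that aligned to more than 1 place, which lowers genes with near-identical copies.

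Symbols, coordinates, lengths and overlaps came from GENCODE M21 (same build), which matched 48144 of 48526 identifiers. Lengths are those of the longest protein-coding transcript, a choice made when many longest transcripts were seen to be non-coding. Copies were sought with blastn 2.17.0 among annotated transcripts (at least 95% identity over 200 bases). The test was that of edgeR 4.0.16 under R 4.3.3 (filterByExpr, TMM, quasi-likelihood F, Benjamini-Hochberg adjustment over all genes tested). Intervals at 95% come from the same fit, and a standard error is the size of the log2 value over the root of F. CPM are per 1000000 counts in genes, with TMM factors, and ratios within a line used CPM + 0.5. The biological coefficient of variation was 18.0%, and 3 counts equal 0.0991 to 0.137 CPM. The procedures were also run on simulated counts, drawn without differences between lines, and no result given here rests on that run.

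Line numbers pair the libraries, since those of a number come from the same stable line, although deviations from the group means correlated within lines at only r = 0.0048, 0.067 and 0.028 (log2 CPM, prior count 2). The paired fit was an alternative.

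The members and lists were chosen with earlier results of these data known. Values in every library are given for genes that passed, the 12 of smallest p, and those of largest and smallest absolute fold in each role, and of the wider list for the 4 of smallest p as group means. Individual values of 2 genes of the wider list were left out. The alternatives tried were RLE scaling, no TMM factors, no filter, the block, each library or line left out, DESeq2 1.42.0, limma-voom (limma 3.58.1), offsets for length and GC content (splines with 5 degrees of freedom each), a minimum of 5 CPM, a fit without leukocyte markers and an adjusted p under 0.1. A block with the offsets was added after the data were seen.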

Additional observations from a re-analysis of the deposited data

How the results depend on the processing

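The number of genes called, 332, became 1052 with no filter on low counts, 720 with DESeq2, 49 with a minimum of 5 CPM, 593 at an adjusted p under 0.1 and 243 with the replicate block. It lay between 62 and 1551 when a library or line was left out: 89, 117 and 182 without the untreated library of line 3, 4 or 5, 1551 without the treated library of line 3, and 664, 62 and 197 without both libraries of line 3, 4 or 5. Of the 34 genes, 1 was called with the replicate block and 0 with a minimum of 5 CPM, and 0 to 6 were called when a library or line was left out. Their median lay between -0.028 and 0.083 in those fits. Of the wider list, 2 genes were called with no filter, 1 with DESeq2 and 1 with the offsets, and 0 to 3 when a library or line was left out. Between lines 240 genes were called with no filter, none of them among the 34, and 0 to 6 when a line was left out (6 without line 5). The block changed no call among the 34 genes.

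Some values changed sign, the largest of them in the main fit being 0.16 for Mdh2 and 0.11 for Mpc1. None of them was called in these fits. Without TMM factors the log2 fold change was 0.029 for Pdha1, 0.0056 for Cs, 0.0088 for Aco1 and 0.0020 for Sdha. With the offsets for length and GC content it was -0.061 for Mpc1, -0.028 for Dld, 0.0084 for Cs, 0.086 for Aco1, 0.070 for Ogdh and 0.067 for Acly, and with the replicate block and these offsets -0.052, -0.030, 0.0056, 0.089, 0.067 and 0.064 in the same order. When a library or line was left out, the values lay between -0.090 and 0.084 for Pdha1, -0.13 and 0.086 for Cs, -0.12 and 0.067 for Aco1, -0.14 and 0.012 for Idh3g, -0.17 and 0.053 for Ogdh, -0.14 and 0.050 for Sdha, -0.050 and 0.30 for Mdh2, -0.075 and 0.075 for Glud1, -0.13 and 0.22 for Got2 and -0.18 and 0.076 for Acly. For the values that changed, the cause was not tested. Every one of the 34 genes had at least 175 counts in each library.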
